A study of Mus musculus with 6 samples.

Results

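The cytosolic ribosomal protein genes were followed in RNA of the mouse cerebral cortex. Members were the protein-coding genes whose symbol begins with Rpl or Rps and a number, together with Rplp0, Rplp1, Rplp2 and Rpsa, and without the ribosomal S6 kinases. The rule found 94 genes among the 54532 in the table, on 20 chromosomes, 14 of them on chromosome 7. Of these, 77 were the core genes of the ribosome, 31 of the small and 46 of the large subunit. Another 9 were Rps27rt and the genes named as pseudogenes that the table types as coding, 7 were paralogs of core genes and 1, Rps19bp1, encodes a protein that binds Rps19.

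Libraries came from mice aged 12 months, with 3 wild-type (WT) libraries and 3 labelled Fam69c-/- (KO), a label for loss of Fam69c, which encodes a kinase-like protein of the secretory pathway. No treatment was named. The labels do not say whether each library is a separate mouse, so every test measures the spread between these libraries, which may be technical. Levels are in FPKM, fragments per kilobase of gene, scaled to a library size other than the total of reads recovered. Fam69c RNA was present in all 6, at 2.03, 1.57 and 2.08 FPKM in WT and 1.54, 1.84 and 1.42 FPKM in the libraries labelled KO. Those groups overlapped, so this RNA does not check the labels, and each direction below is between libraries as labelled.

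Each library held 30935326 to 35065884 reads as recovered from the values. Cortical neuron markers were present throughout, with 7 of 7 excitatory markers summing to 1776 to 1999 FPKM in WT and 1768 to 1875 FPKM in KO. Striatal neuron markers, 10 of 10 of which were detected and none at 0, differed between libraries of the same group. They summed to 444, 457 and 156 FPKM in WT and to 213, 407 and 352 FPKM in KO, so WT replicate 3 and KO replicate 1 were the lowest. Oligodendrocyte markers (6 of 6 detected) were highest in KO replicate 1, at 758 FPKM, and lowest in WT replicate 3, at 575 FPKM. These are whole-tissue libraries, in which fewer cells of a type and less RNA per cell cannot be told apart.

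Cytosolic ribosomes translate nearly all messenger RNA of a cell and hold 1 copy of most of their proteins, which are made in balanced amounts. Messenger RNAs for these proteins are short, abundant and begin with a run of pyrimidines, the 5′ TOP motif, through which mTOR signalling sets their translation. Over evolution many were copied back into the genome without introns, and most such copies are pseudogenes. A sequencing read that matches both a gene and its copy can be assigned to either, and how such reads were counted is not given in the sources used here.

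Rps27 and its copy Rps27rt are the pair whose division of reads varied most between libraries. Rps27 encodes a zinc-finger protein of the small subunit from 4 exons on chromosome 3 (mm10, 90212522 to 90213651, minus strand). Rps27rt is a single-exon copy on chromosome 9 (114982366 to 114982739, minus strand) and Rps27l is a paralog with 4 exons, also on chromosome 9 (66946086 to 66949516). The coding sequences, from GENCODE M21 transcripts on GRCm38, are shown because they are what a read from inside the coding region can be matched to. Capitals in Rps27l mark the bases that differ from Rps27.
Rps27: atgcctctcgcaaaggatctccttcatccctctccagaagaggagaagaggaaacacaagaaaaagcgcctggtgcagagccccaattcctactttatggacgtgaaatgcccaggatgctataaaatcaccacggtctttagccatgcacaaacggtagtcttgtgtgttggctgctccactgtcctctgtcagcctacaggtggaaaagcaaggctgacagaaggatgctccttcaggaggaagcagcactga
Rps27rt: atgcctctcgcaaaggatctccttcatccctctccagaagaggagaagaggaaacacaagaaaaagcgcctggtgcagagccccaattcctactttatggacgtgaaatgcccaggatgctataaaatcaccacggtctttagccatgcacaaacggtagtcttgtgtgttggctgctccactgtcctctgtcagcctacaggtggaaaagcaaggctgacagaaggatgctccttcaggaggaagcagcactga
Rps27l: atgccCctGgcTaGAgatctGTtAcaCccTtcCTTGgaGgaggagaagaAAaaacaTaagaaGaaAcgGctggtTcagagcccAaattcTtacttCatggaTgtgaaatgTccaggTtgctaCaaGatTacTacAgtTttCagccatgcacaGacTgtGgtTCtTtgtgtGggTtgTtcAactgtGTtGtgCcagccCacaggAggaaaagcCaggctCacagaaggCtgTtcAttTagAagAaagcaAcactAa

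Rps27 and Rps27rt were identical at all 255 coding bases, so no read from inside the coding region separates them by sequence. Rps27l differed from both at 61 of those bases, an identity of 76.1%. In Rps27 the coding sequence is joined after positions 6, 115 and 226, counted from the A of the start codon, while Rps27rt holds the same letters in 1 exon. Of all 50-base words of the main transcript, 1.35% of those of Rps27 and 8.9% of those of Rps27rt occurred in no transcript of another gene.

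The starts of the pair were compared in RefSeq on GRCm38.p6, with 15 bases before the annotated start and 15 from it onward. Capitals mark the 14 bases that both windows share, which are shown because they are all that the copy keeps of this window.
Rps27: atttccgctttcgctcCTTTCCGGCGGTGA
Rps27rt: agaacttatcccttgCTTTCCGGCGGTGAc
These windows lie at chr3:90213634-90213663 and chr9:114982725-114982754, both on the minus strand. The shared run begins at the annotated start of Rps27rt and 1 base inside that of Rps27. Before the start, 66 of 250 bases matched without gaps, counted from the annotated starts and so 1 base out of step with the shared run. No share for unrelated sequences was computed, so this count does not show whether the copy keeps any sequence there.

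Rps27rt had the smallest p of all genes tested and Rps27 was among the few members with a higher estimate in KO. Rps27rt had 1070, 2029 and 1784 reads in WT and 241, 302 and 212 in KO. Rps27 had 1894, 819 and 725 reads in WT and 2618, 2329 and 2114 in KO. Every WT library had more reads on the copy and fewer on the parent than every KO library. In FPKM, Rps27rt read 91.6, 177 and 144 in WT and 19, 24.2 and 15.8 in KO, with the groups apart, and Rps27 read 58.1, 25.6 and 21 against 74.0, 67.0 and 56.6, where WT replicate 1 lay above KO replicate 3.

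The log2 fold change of Rps27rt, always KO minus WT on log2(FPKM + 0.5), was -2.74 ± 0.25 (standard error; limma, Benjamini-Hochberg adjusted p = 0.228). For Rps27 it was 1.04 ± 0.35, with 95% limits of 0.21 and 1.88 (limma adjusted p = 0.999). Neither passed the adjusted threshold of 0.05.

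As a share of the pair's reads, Rps27rt held 36.1% in WT replicate 1 (Wilson 95% interval 34.4 to 37.8, counting error only), 71.2% in replicate 2 (69.6 to 72.9) and 71.1% in replicate 3 (69.3 to 72.8). In KO it held 8.43% (7.47 to 9.5), 11.5% (10.3 to 12.8) and 9.11% (8.01 to 10.4). The mean was 59.5% ± 20.3 (SD, n = 3) in WT and 9.67% ± 1.6 (SD, n = 3) in KO. Every WT share was above every KO share, and WT replicate 1 differed from the other WT libraries by more than its counting interval. A two-sided exact permutation test gave p = 0.1, the smallest that 3 against 3 allows.

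The sum of both rows differed far less between libraries than either row. It was 2964, 2848 and 2509 reads in WT and 2859, 2631 and 2326 in KO, or 93.8, 92.1 and 76.7 RPM (reads scaled to the library total) against 83.8, 79.6 and 66.3 RPM. The groups overlapped, with WT replicate 3 below KO replicates 1 and 2. With the rows replaced by their sum in the fit over all genes, the estimate was -0.21 ± 0.12 (standard error), with 95% limits of -0.50 and 0.09 (limma adjusted p = 0.999). The estimates of Rps27rt alone and of Rps27 alone both lie outside those limits. The paralog Rps27l read 8.79, 9.38 and 8.98 FPKM in WT and 10.5, 8.82 and 7.97 FPKM in KO, and the groups overlapped.

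**Figure D1:**
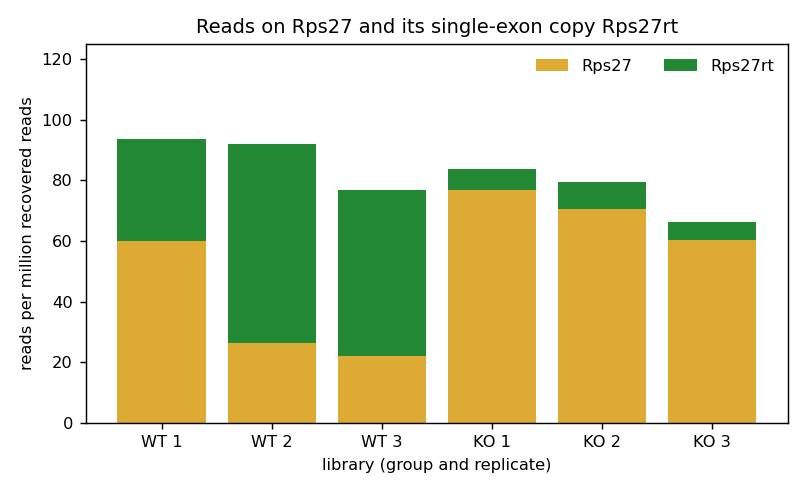
Reads on Rps27 and Rps27rt, in RPM (y axis, reads scaled to the library total), in each of the 6 libraries (x axis), stacked so that a bar's height is the pair. The bars run from 66.3 to 93.8, and Rps27rt takes 36.1% to 71.2% of the bar in WT and 8.43% to 11.5% in KO.

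Across the members, most estimates were slightly below 0 and none was called. Of the 94 genes, 86 passed the expression filter of a mean of 0.5 FPKM, and 79 of these had a lower estimate in KO, against 52% of all 15694 genes tested. The members' median log2 fold change was -0.13, and that of all genes was -0.00417. By limma 0 of 86 passed an adjusted p of 0.05, as did 0% of all genes. At an unadjusted p under 0.05 there were 7 members, against 3.82% of all genes, of which 6 were lower (2.19% of all genes) and 1, Rps27, was higher (1.63% of all genes). All KO libraries lay below all WT libraries in 6 of the members tested (4.7% of all genes) and above them in 0 (4.17% of all genes).

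Estimates were mostly lower in either subunit, and the subunits were not tested against each other. In the core small subunit 28 of 31 estimates were lower with a median of -0.14, and in the large subunit 43 of 46 with a median of -0.12. Members took 1.08%, 1.08% and 0.953% of all reads in WT and 1.01%, 0.934% and 0.901% in KO. The groups overlapped, since KO replicate 1 lay above WT replicate 3.

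The order of the libraries was shared by most core genes. Of 77 genes, 43 were highest in WT replicate 1 and 25 in WT replicate 2, while 52 were lowest in KO replicate 3. WT replicate 3 was the highest library for 0 genes and the lowest for 11, and only 3 of the 77 were higher there than in KO replicate 1. The median deviation of a core gene from its own mean over the 6 libraries was 0.16, 0.13 and -0.07 log2 units in WT and 0.06, -0.09 and -0.16 in KO. WT replicate 3, low for its group, and KO replicate 1, high for its group, are the libraries lowest in striatal markers. The mean deviations of the striatal list were 0.47, 0.52 and -1.01 in WT and -0.55, 0.40 and 0.18 in KO. Within WT that list was lowest in replicate 3, as were most core genes. Within KO it was lowest in replicate 1, where most core genes were highest.

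Without WT replicate 3, 41 of the 86 members had an unadjusted p under 0.05 (6.53% of all genes), and without KO replicate 1 it was 25 (5.77% of all genes). Without both it was 65, against 13.4% of all genes, and the members' median was -0.26, with 0 members past the adjusted threshold. They are the WT library with the lowest and the KO library with the highest core median. A larger difference without them was therefore fixed by that choice. Leaving out another library lowered the count, to 3 without WT replicate 1 (2.71% of all genes), 2 without WT replicate 2 (3.34%), 3 without KO replicate 2 (2.73%) and 4 without KO replicate 3 (3.38%). With libraries weighted by their spread it was 52 (9.05%). WT replicate 3 and KO replicate 1 had the lowest weights, 0.45 and 0.62, so that count is not separate from leaving them out. With the replicate number as a block, 33 members had an unadjusted p under 0.05 (5.33%). With all libraries kept, the count was 14 with TPM scaling (3.75% of all genes) and 15 with voom on the recovered reads (3.4%). The part of tissue composition in these values was not tested.

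As list means, inhibitory neuron and red blood cell markers were above and below 0 in the same libraries as the core genes. Single markers differed, with Vip highest in WT replicate 3, at 15.7 FPKM, and Hba-a1 in KO replicate 3, at 62.6 FPKM. Oligodendrocyte markers had the same signs except in WT replicate 1. Their mean deviations were -0.003, 0.17 and -0.25 in WT and 0.24, -0.11 and -0.05 in KO. Inhibitory neuron markers (6 of 6 detected, none at 0) had mean deviations of 0.03, 0.07 and -0.04 log2 units in WT and 0.05, -0.03 and -0.08 in KO, and summed to 423 to 463 FPKM in WT and 397 to 469 FPKM in KO. Red blood cell markers (5 of 5 detected, none at 0) had mean deviations of 0.21, 0.29 and -0.06 in WT and 0.25, -0.54 and -0.15 in KO, and summed to 110 to 126 FPKM in WT and 73.7 to 126 FPKM in KO. Excitatory neuron, astrocyte and endothelial list means did not have the core genes' signs in every library. Estimates in KO were lower for 5 of 6 inhibitory neuron, 5 of 5 red blood cell and 6 of 6 microglial markers. They were lower for only 1 of 5 endothelial, 2 of 6 oligodendrocyte and 3 of 10 striatal neuron markers, against 52% of all genes. Microglial markers summed to 73.8 to 91.1 FPKM in WT and 75.5 to 85.0 FPKM in KO. The part of these cell types in the members' values was not tested.

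**Figure D2:**
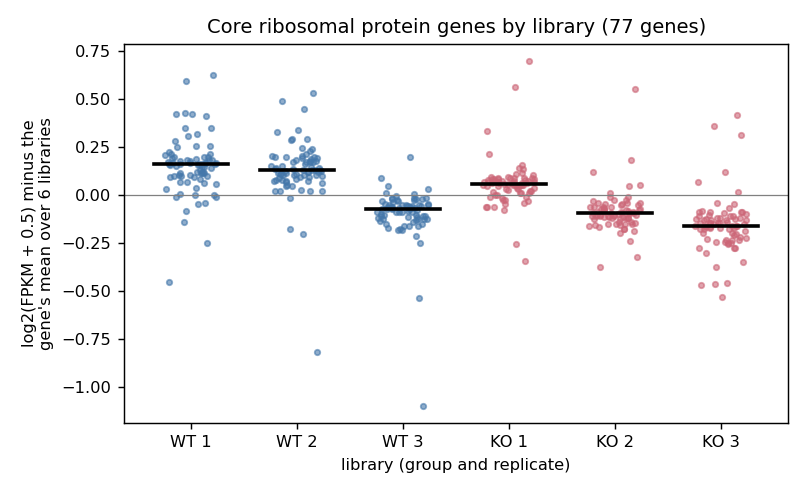
Deviation of each of the 77 core genes from its own mean over the 6 libraries, in log2(FPKM + 0.5) units (y axis), by library (x axis), 1 point a gene, with the median as a black bar. Medians are 0.16, 0.13 and -0.07 in WT and 0.06, -0.09 and -0.16 in KO, so the groups overlap at WT replicate 3 and KO replicate 1.

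Among small subunit genes, Rps21 was apart between the groups. It read 161, 154 and 124 FPKM in WT and 124, 117 and 91.3 FPKM in KO, with WT replicate 3 just above KO replicate 1. The log2 fold change of Rps21 was -0.41 ± 0.14 (standard error; limma adjusted p = 0.999). Rps19, the gene most often mutated in Diamond-Blackfan anemia, read 27.2, 24.6 and 22.4 FPKM in WT and 22.3, 19.9 and 20.9 FPKM in KO, also apart by a narrow margin, with a log2 fold change of -0.23. Rps28 read 30.7, 32.1 and 20.2 FPKM in WT and 21.8, 17.4 and 18.3 FPKM in KO, so its WT replicate 3 lay inside the KO range, with a log2 fold change of -0.49.

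Other small subunit genes overlapped. Rps15, the small subunit gene with the highest level, read 401, 361 and 324 FPKM in WT and 337, 319 and 287 FPKM in KO, a log2 fold change of -0.20. For Rps3a1 the values were 238, 251 and 214 FPKM in WT and 235, 202 and 199 FPKM in KO, a log2 fold change of -0.15. Rpsa, which also serves as a laminin receptor, differed least among these, at 96.8, 97.2 and 89.9 FPKM in WT and 97.6, 90.5 and 86.8 FPKM in KO, and 95% limits of its log2 fold change were -0.19 and 0.10. Rps27a encodes a ribosomal protein fused to ubiquitin, and read 36.2, 25.8 and 21.5 FPKM in WT and 23.6, 18.5 and 18.2 FPKM in KO, where WT replicates 1 and 2 lay above the KO range and WT replicate 3 within it. Its log2 fold change was -0.44 ± 0.19 (standard error).

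In the large subunit, Rpl30 was apart between the groups at 21, 29.9 and 25 FPKM in WT and 18.1, 20.3 and 18.2 FPKM in KO. Its log2 fold change was -0.40 ± 0.12 (standard error; limma adjusted p = 0.999). Rpl13 read 112, 110 and 102 FPKM in WT and 102, 93.1 and 90.3 FPKM in KO, a log2 fold change of -0.18, and the groups overlapped narrowly at WT replicate 3 and KO replicate 1. Rpl36 read 224, 215 and 173 FPKM in WT and 196, 168 and 158 FPKM in KO, a log2 fold change of -0.23. For the abundant Rpl4, Rpl8 and Rpl19 the log2 fold changes were -0.09, -0.13 and -0.14, and that of Rpl41, which encodes one of the shortest proteins known, was -0.16. All of the last 4 overlapped between groups.

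The stalk of the large subunit, built from Rplp0, Rplp1 and Rplp2, recruits the elongation factors. Rplp1 had the highest level of all members, with 747, 733 and 620 FPKM in WT and 639, 653 and 629 FPKM in KO. Rplp0 read 117, 109 and 97.9 FPKM in WT and 108, 97.7 and 91.7 FPKM in KO, and Rplp2 54.0, 51.0 and 43.8 FPKM against 46.7, 43.6 and 44.5 FPKM. WT replicate 3 was the lowest library for Rplp1, while for Rplp2 it was above 1 KO library. Their log2 fold changes were -0.12, -0.12 and -0.14, within the range of the other core genes.

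X-linked members took the same direction with groups that overlapped. Rpl10, which completes the large subunit late in its assembly, read 89.1 ± 9.82 FPKM in WT and 82.0 ± 4.02 FPKM in KO (SD, n = 3 each). Rpl36a read 28.0 ± 3.48 and 25.1 ± 3.92 FPKM, Rpl39 read 36.5 ± 5.4 and 33.6 ± 3.7 FPKM, and Rps4x read 93.0 ± 4.52 and 88.2 ± 5.93 FPKM. Their log2 fold changes ran from -0.16 in Rpl36a to -0.08 in Rps4x.

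Paralogs of core genes were lower in level than most core genes. Rpl22l1, a paralog of Rpl22, read 12.1, 13.4 and 12.3 FPKM in WT and 11.8, 12.1 and 11.1 FPKM in KO, and Rpl7l1 read 10.4, 10.1 and 10.3 FPKM against 9.66, 9.82 and 9.72 FPKM. Both were apart between groups, with log2 fold changes of only -0.11 and -0.07. Rpl3l, known for skeletal and heart muscle, had 10 to 19 reads per library and lay below the filter, at 0.253, 0.198 and 0.220 FPKM in WT and 0.287, 0.274 and 0.323 FPKM in KO. Rpl39l, known for germ cells, had at most 1 read in any library, and Rpl10l, a gene of the testis, had 0 in all 6, which allows up to 3 reads per library.

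The copies typed as coding were mostly low. Rps12-ps3 read 57.2 ± 2.14 FPKM in WT and 54.4 ± 10.1 FPKM in KO and Rpl9-ps6 25.1 ± 8.29 and 20.8 ± 2.03 FPKM (SD, n = 3 each), while Rpl27-ps3 and Rpl10-ps3 were covered by at most 22 reads per library. Rpl36a-ps1 had at most 8 reads, Rpl13a-ps1 had 1 read in KO replicate 1 and 0 elsewhere, and Rpl9-ps1 and Rpl36-ps4 had 0 in every library. Rps12-ps3 is identical to Rps12 over 494 aligned bases. Rpl36al, a paralog with 5 to 14 reads per library, lay below the filter and shares 24.5% of its exon bases with the overlapping gene Gm49383.

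Copies were then searched for every core gene, counting a gene as a copy when its transcripts share at least 100 words of 50 bases with the parent's. Copies were found for 68 of the 77 core genes, 402 in all. The parent held a median of 94.8% of its family's reads, and in 52 families its share ranged by under 5 percentage points over the 6 libraries. In 9 families it ranged by over 10 points, with Rps27 the widest at 62.8 points.

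Rpl30 was next, with 74.6%, 95.8% and 96.5% of its family's reads on the parent in WT and 75.1%, 81.4% and 81.3% in KO. The rest lay on processed pseudogenes such as Gm12191, which had 373, 95 and 47 reads in WT and 297, 315 and 262 in KO. WT replicate 1 had a parent share below all KO libraries here, and in the Rps27 pair it was the WT library nearest to them. With its copies summed, the log2 fold change of Rpl30 went from -0.40 to -0.25.

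Parents held less than 50% of the family's reads in 4 families, those of Rpl17, Rpl21, Rpl24 and Rps10. Rpl21 has 39 copies and held 22.5%, 36.2% and 20.3% in WT and 21.7%, 31.8% and 39.3% in KO, so its share varied within each group. Its own row read 9.06, 15.9 and 7.32 FPKM in WT and 8.44, 12.4 and 14.7 FPKM in KO, a log2 fold change of 0.17, and -0.06 with copies summed. Rps10 held only 5.4% to 10.7% of its family, with 88 to 168 reads against 1317 to 1599 on Rps10-ps2, a pseudogene by annotation. Its log2 fold change was 0.22 on its own row and -0.06 with copies summed.

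Rpl17 read 70.4, 48.1 and 41.0 FPKM in WT and 44.0, 46.2 and 35.8 FPKM in KO, and its share was 32.1% in WT replicate 1 against 19.6% to 23.6% in the other 5 libraries. Its log2 fold change was -0.31 on its own row and -0.13 with copies summed. Rpl24 had only 13 to 37 reads per library, with a log2 fold change of 0.23 on its own row and -0.02 with copies summed. Its gene model shares 47.0% of its exon bases with the overlapping gene Gm28037, and Rps10 shares 20.6% with RPS10-NUDT3 and Rpl13a 29.4% with Gm45713. Reads in such shared exons may be missing from these rows, so the low levels of Rpl24, Rps10 and Rpl13a are uncertain. Rpl35 and Rpl23a share more of their exon bases with an overlapping gene, 66.2% and 59.7%, and averaged 50.9 and 84.7 FPKM. The part of such overlaps in the levels was not tested.

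With all copies summed, 76 of 77 core estimates were lower in KO, against 51.8% of all genes in that fit, instead of 71. The 1 gene left above 0 was Rpl7a, at 0.02. The median stayed at -0.13, while the SD of the log2 fold changes over the core genes went from 0.18 to 0.0856. Rps27, which moved furthest, from 1.04 to -0.21, weighed heavily in the first SD. The range of the core genes became -0.43 (Rps28) to 0.02. By limma 0 of 77 passed the adjusted threshold, as did 0% of all genes, and 5 had an unadjusted p under 0.05 (3.82% of all genes). Rps12 went from 0.02 to -0.01 and Rps27a from -0.44 to -0.38.

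**Figure D3:**
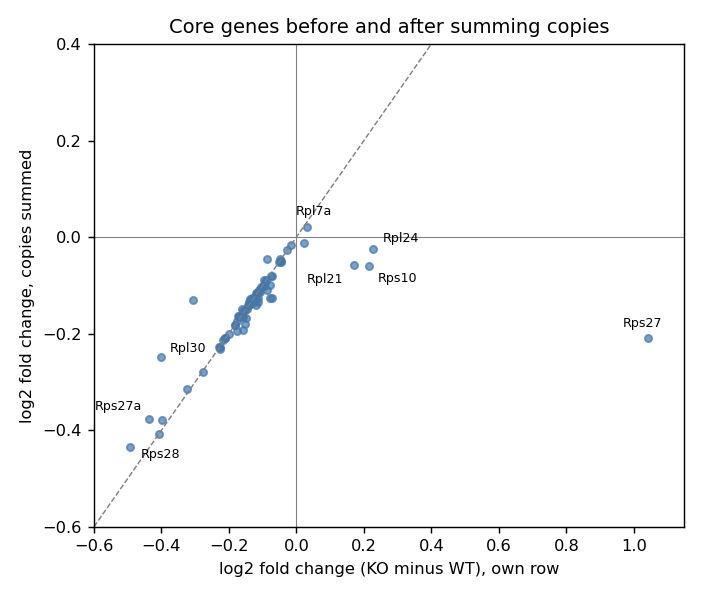
Log2 fold change (KO minus WT) of 77 core genes on their own row (x axis) and with the reads of all copies summed (y axis), 1 point a gene, with the line of equal values dashed. Most points lie near the line, around the median of -0.13, and Rps27, Rpl21, Rpl24, Rps10 and Rps12 move from above 0 to below it.

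Levels also depended on how copies and lengths were taken. Levels in RPKM (reads per kilobase, scaled to the total of reads recovered) were first taken on the deposited gene length, which has a median of 1770 bases over the core genes, and they ran from 0.759 in Rpl24 to 672 in Rplp1. The gene at the 90th percentile was 6.97-fold above that at the 10th. Per kilobase of the main transcript, with a median of 827 bases, that ratio was 6.82. With copies summed and the main transcript's length it was 3.47, and the lowest gene, Rpl24, was at 4.27. Of the 50-base words of a core gene's main transcript, a median of 59.9% occurred in no other gene, and under 50% did in 28 genes.

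**Figure D4:**
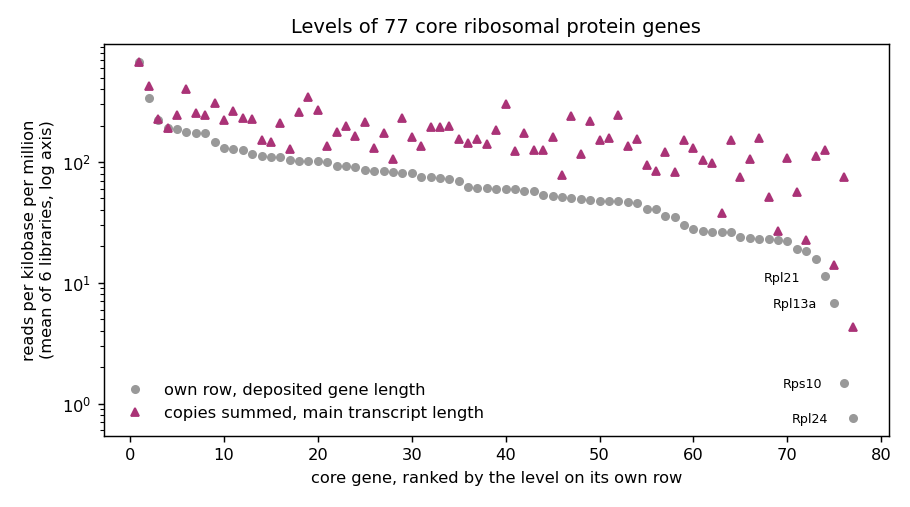
Level of each of 77 core genes, in RPKM averaged over the 6 libraries (y axis, log scale), ranked by the level on the gene's own row (x axis), for the deposited gene length (circles) and for the main transcript's length with copies summed (triangles). The circles reach down to 0.759 for Rpl24, which stands at 4.27 with copies summed.

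Some members carry sequence at their starts that the naming rule did not use. RefSeq start windows matched 57 of the 77 core genes, with 67 windows among 32851. The motif TTCCGG, searched on both strands from 250 bases before to 50 after the start, was in 49.3% of the core windows and 14.9% of all windows. CTTTCC, searched as written within 15 bases of the start, where it can overlap TTCCGG, was in 13.4% and 1.42%. A run of at least 8 C or T bases within 5 bases of the start was found in 32.8% and 9.72%, and TATAAA, on both strands, in 8.96% and 13.6%. The starts of Rps27 and Rps27rt shown above both carry CTTTCC and TTCCGG in their shared run.

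Related genes of the translation machinery were also mostly lower, and their counts stand beside the 52% of all genes with a lower estimate. Fau, a ribosomal protein gene named otherwise, read 189 ± 12.3 FPKM in WT and 169 ± 13.6 FPKM in KO (SD, n = 3 each), a log2 fold change of -0.17. Rack1, which encodes a ribosome-bound scaffold, read 30.2 ± 1.55 and 28.4 ± 2.15 FPKM, and its estimate was -0.09 log2 units. Elongation factors and other 5′ TOP messenger RNAs were 19 of 19 lower with a median of -0.08, and 1, Pabpc1, which encodes the poly(A) binding protein, had an unadjusted p under 0.05 (3.82% of all genes), at 20.8 ± 0.791 and 19 ± 0.61 FPKM. SnoRNA host RNAs were 6 of 8 lower with a median of -0.08, among them Snhg8, at 8.58 ± 1.8 and 6.24 ± 0.623 FPKM.

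Estimates for the genes that build ribosomes lay closer to 0. Ribosome biogenesis factors were 23 of 29 lower with a median of -0.04, led by the nucleolar genes Nop56, at 15.1 ± 1.13 and 13.6 ± 0.543 FPKM, and Fbl, at 5.86 ± 0.39 and 5.22 ± 0.385 FPKM. RNA polymerase I and its factors, which transcribe ribosomal RNA, were 10 of 19 lower with a median of -0.00269. A list of mTOR and LARP1 pathway genes, which also holds the transcription factor genes Myc, Mycn and Max, was 13 of 19 lower with a median of -0.06. Its smallest p belonged to Max (-0.13), followed by Mlst8 (0.14), which encodes a subunit of the mTOR complexes. In each of these lists 0 genes passed the adjusted threshold in limma. The differences between lists were not tested.

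Members are short genes, with a median deposited length of 1770 bases in the core against 3815 over all genes tested. Protein-coding genes of 300 to 1000 deposited bases that are no members had 184 of 298 estimates lower (61.7%) and a median of -0.04, and those over 1000 bases had 52.2% lower and a median of -0.00413. The short genes' mean deviations were 0.05, 0.03 and -0.06 in WT and 0.05, -0.05 and -0.02 in KO, so that WT replicate 3 was low and KO replicate 1 high there too. The part of gene length in the members' values was not tested.

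**Figure D5:**
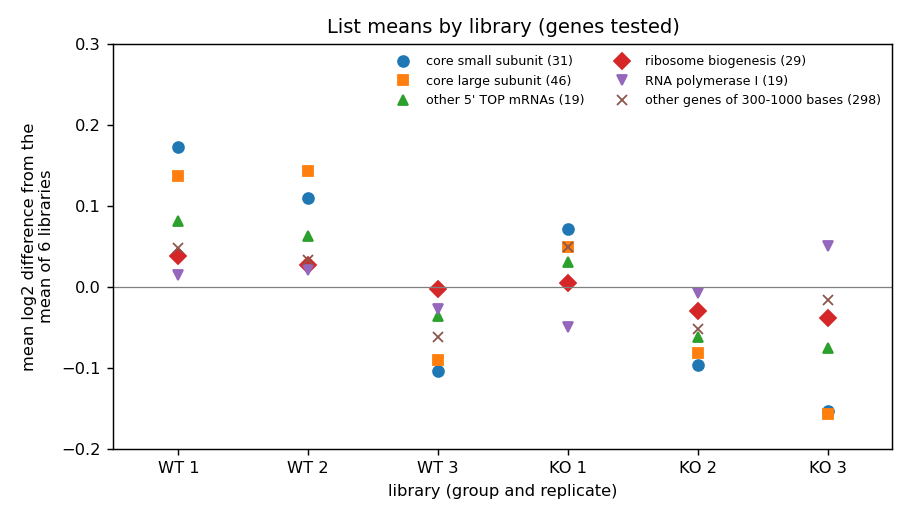
Mean log2 deviation from the 6-library mean (y axis) for 6 gene lists in each library (x axis), with the number of genes tested in brackets. Both subunits are above 0 in WT replicates 1 and 2 and KO replicate 1 and below it in the other 3 libraries, and RNA polymerase I genes do not follow that order, being highest in KO replicate 3 at 0.05.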

How the data were processed

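RNA of the cerebral cortex was sequenced in 3 WT and 3 KO libraries, built from total RNA with an Illumina TruSeq kit per the labels' protocols. Bowtie and the mm10 build are named, with no version, per the submitters' processing notes. The read counter, its treatment of strand and multiple matches, and the gene annotation are not named in the sources used here. The authors deposited 1 table of FPKM values with gene lengths. Multiplied by length, 100% of the values above 0 were whole multiples of 1 step per library within 0.001, which gave the reads. The steps were not exactly inverse to the totals of reads recovered, so the FPKM values were scaled to a size other than that total.

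What follows was computed here. Genes averaging 0.5 FPKM or more were tested on log2(FPKM + 0.5) with limma 3.58.1 in R 4.3.3, with a variance trend and no covariate, two-sided, with Benjamini-Hochberg adjustment over all 15694 genes and a threshold of 0.05. This scale understates the change of low genes. The median 95% interval of a member reached 0.221 log2 units to either side. Simulated data had 200 of 15694 genes changed in each of 10 draws. Of 2-fold changes 82.5% were recovered and of 4-fold changes 95.2%, with 9.2 false among 186.9 calls per draw. Noise was drawn separately for each gene, without the shifts that many genes share within a library. The adjusted threshold is also easier to pass with 200 changed genes than with few. These rates can therefore overstate recovery in the real data, where Rps27rt was not called. Of the rows, 98.1% have the positions of GENCODE M21, whose transcripts gave exons, coding sequences and shared words. Biopython 1.88 was used for sequences and matplotlib 3.10.9 for plots.

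Members, lists, tests and alternatives were chosen with earlier results of these data known. Named members were the Rps27 genes, the 8 with the highest mean, the 6 with the smallest p in each direction, the stalk genes with Rpsa, the X-linked genes, Rps27a, the paralogs, the copies typed as coding and members near 0, with up to 3 genes from each related list. Rpl7a, Rpl13a, Rpl17, Rpl23a, Rpl35 and the copies were chosen after their values were seen, as was the summing of all copies. Alternatives were other pseudocounts, filters, scalings and variance settings, sample weights, a replicate block, voom on the recovered reads and leaving libraries out. Same-numbered libraries deviated together with r of 0.0816, 0.0135 and 0.21, so the numbers were not taken to pair them. No 2 libraries agreed within the noise of read sampling.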

Additional observations from a re-analysis of the deposited data

How the results depend on the processing

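With 3 libraries a group, intervals reached 0.221 log2 units around a member's estimate, more than the median difference. Members past the adjusted threshold numbered 0 under all 17 other settings, and 75 to 82 were lower. The share of all genes with a lower estimate depended on scaling, at 42.5% with TPM scaling and 46.1% with voom. Under these, 77 and 78 of the 86 members were lower. With median-of-ratios scaling the members' median was -0.13 and 52% of all genes were lower. The median of the members ran from -0.20 (without WT replicate 3) to -0.09 (without KO replicate 3) when 1 library was left out. Without both WT replicate 3 and KO replicate 1 it was -0.26, a larger difference that the choice of these libraries fixed in advance. In that fit 1 gene of the table, no member, was past the threshold. Over the 77 core genes alone the median was -0.13, and it stayed there with named pseudogenes or all copies summed. The log2 fold change of Rps27rt ran from -3.01 to -2.53, that of Rps27 from 0.67 to 1.48 and that of the summed pair from -0.39 to -0.10.

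With the replicate number as a block the estimates are the same, the members' median was -0.13, and members with an unadjusted p under 0.05 numbered 33 instead of 7. Rps27rt then had a limma adjusted p of 0.336, and over all settings its adjusted p ran from 0.0568 (mean of at least 5 FPKM) to 0.635 (no variance trend). Fits that leave out libraries pool the spread of those that remain.

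Some small estimates turned sign. Rps27l was 0.0194 with TPM scaling and 0.0109 with voom, and Rps12 was -0.0459 with sample weights and -0.022 without both WT replicate 3 and KO replicate 1. With 1 library left out, the estimate ran from -0.104 to 0.0838 for Rps27l, from -0.0344 to 0.0976 for Rps12, from -0.387 to 0.0228 for Rpl9-ps6, from -0.188 to 0.000198 for Rpl39, from -0.0554 to 0.479 for Rpl21, from -0.082 to 0.166 for Rpl10-ps3 and from -0.181 to 0.0729 for Rps12-ps3. The cause was not tested.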
